A study of Homo sapiens with 4 samples.

Results

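The tight junction genes described here are 9 genes of the seal between neighbouring epithelial cells: the claudins CLDN1, CLDN3, CLDN4 and CLDN7, the MARVEL domain proteins OCLN, MARVELD2 and MARVELD3, the scaffold TJP1 and the adhesion receptor F11R. They were given as a list of names, out of 19970 protein-coding genes of GENCODE release 44 on chromosomes 1 to 22 and X, and all 9 were found. For each gene every ATAC-seq peak in the gene body and the 50 kb on either side was taken, which is called its window below. A promoter was called open in a condition where a peak lay within 1 kb of any transcription start site (TSS) of the gene.

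Tight junctions close the gap between epithelial cells near their apical side and keep apical and basolateral membrane separate. Claudins form the strands and set which ions pass, occludin and tricellulin belong to the MARVEL family and sit in the strands and where 3 cells meet, JAM-A is an immunoglobulin-type adhesion molecule, and ZO-1 ties all of these to actin. Tight junction genes are often lowered when epithelial cells take on a mesenchymal shape, and TAZ, a co-activator of the Hippo pathway that binds DNA through TEAD factors, can drive such a change in breast epithelium.

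The cells were MCF10A, a non-transformed human mammary epithelial line, carrying a tetracycline-inducible TAZ-4SA, a constitutively active form of TAZ. The Dox group received 0.05 µg/mL doxycycline for 72 h, and the No Dox group, with the same transgene, received none. ATAC-seq, which reads open chromatin through transposase insertion, was run on 2 biological replicates per condition. The authors pooled the replicates and deposited 1 peak list per condition, so no spread between replicates can be given, no difference between conditions was tested, and every comparison is between these 2 lists.

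The Dox list held 84321 peaks on the chromosomes used and the No Dox list 117712. The value of each peak is its fold, the signal at the summit over background, with a median of 4.07 for the Dox list and 3.81 for No Dox. Folds rose in even steps of 0.226 in the Dox list and of 0.212 in the No Dox list (100% of peaks lay within 0.01 step of a whole number). If the peak caller added 1 to both signal and background, as MACS2 does by default, each fold gives the reads piled up at the summit over a background of 3.42 reads in Dox and 3.72 reads in No Dox. On that reading the weakest peak of either list had 11 reads and the median peak 17. Intervals after reads below are exact 95% Poisson intervals, which cover counting error only. Because the lists differ in length and background, folds were also given as the percentile within their own list. Overlapping peaks were merged into union regions, 149858 in all, and a region with peaks of a single list is called Dox-only or No-Dox-only. Of the 8 mammary epithelial markers checked, 7 had an open promoter in both lists and KRT14 in neither, while all 5 endothelial markers, CLDN5 among them, were closed in both. Of 5 immune markers, 3 were closed in both lists, PTPRC was open in No Dox alone and CD14 in both.

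Promoters of the tight junction genes were open in both conditions at 8 of the 9 genes, where 65.3% of all coding genes were. The exception was CLDN3, open in No Dox alone, a state found at 3.92% of coding genes. No member was open in Dox alone (5.85% of coding genes) or closed in both (24.9%). The 9 windows held 80 regions, of which 25 (31.2%) were Dox-only, beside 25.2% in the windows of all coding genes. A further 15 (18.8%) were No-Dox-only, beside 38.2%, and 40 (50%) were shared, beside 36.6%. Most Dox-only regions lay around F11R and CLDN7, in windows crowded with other genes, and 7 of the 15 No-Dox-only regions lay around TJP1.

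Ranked by fold within the Dox list, the promoter peaks ran from F11R (percentile 99.1) over TJP1 (86.3), MARVELD2 (85.5), OCLN (82.0), CLDN1 (77.2), MARVELD3 (56.9) and CLDN4 (52.7) to CLDN7 (41.2). In the No Dox list the order was F11R (99.4), MARVELD2 (90.2), TJP1 (89.7), CLDN4 (82.6), OCLN (81.6), CLDN1 and MARVELD3 (both 79.3), CLDN7 (15.1) and CLDN3 (1.01). F11R stood apart from the rest in both lists by its counting interval, while other neighbours in either order had overlapping intervals. The 5 Mb on either side of F11R held 17.5 regions per 100 kb, against 1.31 to 4.24 around the other members. What this means for its fold was not tested. The medians over all coding genes with a promoter peak were 83.0 in Dox and 88.8 in No Dox.

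**Figure D1:**
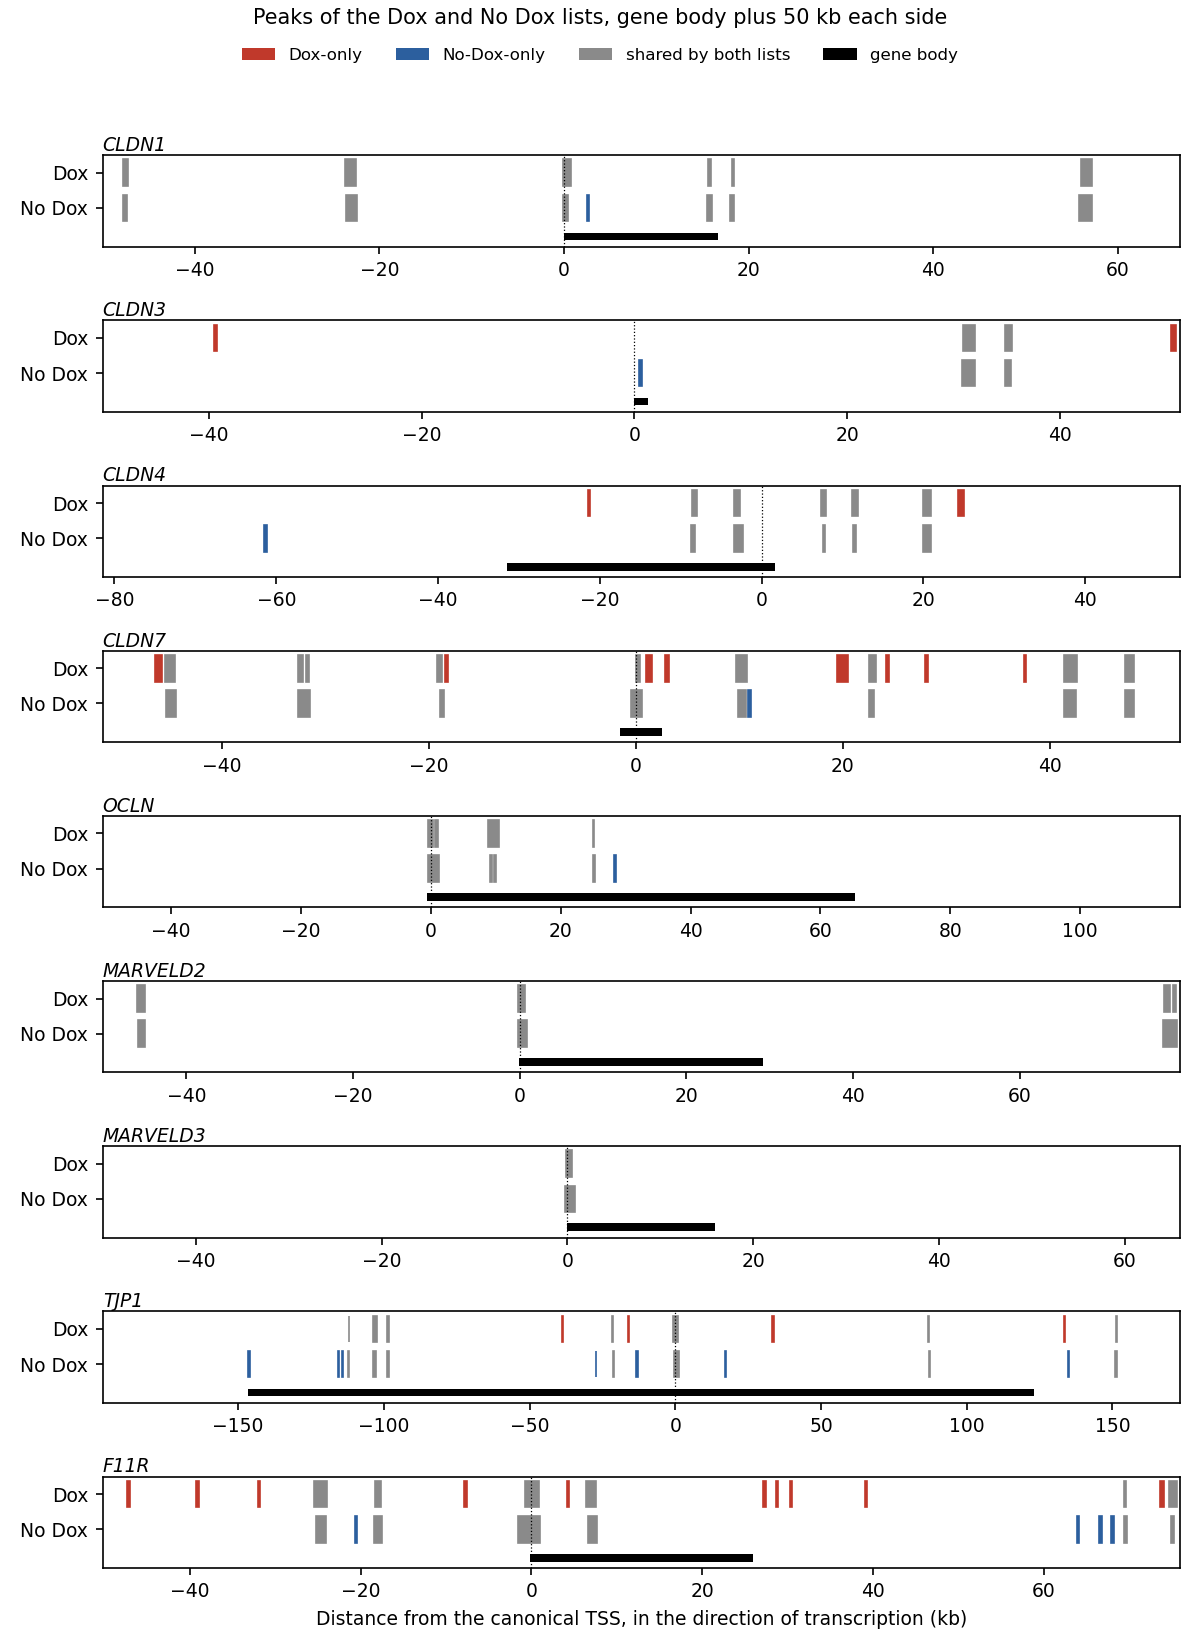
Peaks in the window of each gene, Dox above No Dox, by distance from the canonical TSS in kb along the direction of transcription. Red marks Dox-only regions, blue No-Dox-only regions, grey shared regions, and the black bar is the gene body. MARVELD2 and MARVELD3 have grey peaks alone, F11R has 10 red regions and TJP1 has 7 blue ones.

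The sequences under the peaks are shown for the places on which the description turns. The first is 1 of 2 RefSeq promoters of CLDN7 (GRCh38.p14, chr17:7262429-7262728, minus strand, from 250 bases before to 50 after the start), the one at the canonical TSS, within 1 kb of which the bases under a peak differed by more between the lists than at the other members. Capitals mark the E-box bound by SNAIL and ZEB factors, CAGGTG, sought on both strands.
CLDN7 promoter: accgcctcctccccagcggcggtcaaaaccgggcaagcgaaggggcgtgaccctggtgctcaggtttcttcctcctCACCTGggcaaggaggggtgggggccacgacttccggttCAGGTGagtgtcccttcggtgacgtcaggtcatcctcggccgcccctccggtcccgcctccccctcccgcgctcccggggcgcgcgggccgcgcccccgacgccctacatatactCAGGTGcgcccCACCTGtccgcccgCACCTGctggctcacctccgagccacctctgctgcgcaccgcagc
It held 5 E-boxes, the most motif matches among the RefSeq promoters of the members, and the limit of 5 used next was set at that count. At least 1 was present in 20.6% and at least 5 in 0.094% of 35116 RefSeq promoters of the same length. The Dox peak covered 15 of these 300 bases and the No Dox peak all 300. Both peaks were weak, at percentile 41.2 in Dox and 15.1 in No Dox, and with lists of equal length CLDN7 was open in Dox alone. The other CLDN7 promoter, chr17:7263164-7263463, held 0 matches to the motifs sought and had 0 bases under a peak in either list.

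The next sequence is the No-Dox-only region of highest fold, in the intron of CLDN1 (hg38, plus strand, 100 bases each side of the summit). Capitals mark AP-1 sites (TGACTCA or TGAGTCA) and E-boxes, 1 of which runs straight into the second AP-1 site.
CLDN1 intron, No-Dox-only, chr3:190319813-190320013: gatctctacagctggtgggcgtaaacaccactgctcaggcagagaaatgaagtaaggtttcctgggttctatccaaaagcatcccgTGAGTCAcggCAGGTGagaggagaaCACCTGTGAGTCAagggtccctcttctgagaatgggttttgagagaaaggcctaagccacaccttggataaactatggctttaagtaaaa
This window held 2 AP-1 sites and 2 E-boxes. At least 1 AP-1 site was present in 12.4% and at least 1 E-box in 19.5% of No-Dox-only regions in coding windows. The share with 2 of each was not computed. Among the 15 No-Dox-only regions of the 9 windows, 2 held an AP-1 site and 4 an E-box.

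The last set holds the regions around TJP1 with a TEAD site (ACATTCC or GCATTCC, both strands), printed from the plus strand of hg38 with every matched site in capitals. The set comes from 1 window and includes the single Dox-only region with a TEAD site in the 9 windows.
TJP1 intron, Dox-only, chr15:29838447-29838647: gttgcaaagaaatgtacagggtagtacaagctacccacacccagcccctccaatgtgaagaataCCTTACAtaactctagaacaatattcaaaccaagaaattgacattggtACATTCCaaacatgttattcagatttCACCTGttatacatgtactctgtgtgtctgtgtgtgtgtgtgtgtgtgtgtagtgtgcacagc
TJP1 intron, shared, chr15:29934272-29934472: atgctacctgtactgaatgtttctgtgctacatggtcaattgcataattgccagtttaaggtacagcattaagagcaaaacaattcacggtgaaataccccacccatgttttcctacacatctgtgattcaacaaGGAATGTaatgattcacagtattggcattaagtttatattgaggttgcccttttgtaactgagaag
TJP1 intron, shared, chr15:29924849-29925049: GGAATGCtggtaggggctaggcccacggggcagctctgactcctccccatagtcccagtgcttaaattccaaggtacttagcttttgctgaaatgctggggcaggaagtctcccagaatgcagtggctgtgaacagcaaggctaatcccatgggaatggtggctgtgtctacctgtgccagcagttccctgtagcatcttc
TJP1 intron, shared, chr15:29920773-29920973: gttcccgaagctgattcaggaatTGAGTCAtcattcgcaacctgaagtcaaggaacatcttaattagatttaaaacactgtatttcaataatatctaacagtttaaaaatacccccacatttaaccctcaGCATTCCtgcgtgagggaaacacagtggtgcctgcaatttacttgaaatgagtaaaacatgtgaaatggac
Downstream of TJP1, shared, chr15:29671019-29671219: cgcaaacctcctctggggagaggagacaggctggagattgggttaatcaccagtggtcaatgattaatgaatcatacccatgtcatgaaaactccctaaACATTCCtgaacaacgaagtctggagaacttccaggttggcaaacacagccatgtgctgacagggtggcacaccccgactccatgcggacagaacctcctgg
The Dox-only sequence also held an E-box and the reversed TEAD letters (CCTTACA or CCTTACG), which served as a control, and the region at 29920773 also held an AP-1 site. In all, TEAD sites were found in 7 of the 80 regions, beside 8.59% of all regions in coding windows, and 5 of the 7 were in the TJP1 window, with 1 each downstream of CLDN4 and in ITLN2 near F11R.

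CLDN1 encodes claudin-1, a sealing claudin that is needed for the barrier of the skin. The gene (ENSG00000163347.6, chr3:190305707-190322446, minus strand) had an open promoter in both conditions. The promoter region, chr3:190321703-190322586, is shared with a TSS of CLDN16, its neighbour on the other strand. Its fold was 6.56 in Dox, or 28 reads (18.6 to 40.5), and 5.93 in No Dox, or 27 reads (17.8 to 39.3). The intervals overlapped widely, and the percentiles, 77.2 in Dox and 79.3 in No Dox, lay close together. Within 1 kb of the canonical TSS, 843 bases lay under a peak in Dox and 567 in No Dox, 1 of the 2 members with more bases in Dox.

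The CLDN1 window held 7 regions, of which 6 were shared and none was Dox-only. No Dox-only region was also the state of 27.3% of all coding windows. The No-Dox-only region, chr3:190319732-190319986, lay in the CLDN1 intron with its summit 2.53 kb inside the gene. Its fold was 5.30 in No Dox, 24 reads (15.4 to 35.7), with no peak in the Dox list, and it was the highest of the 15 No-Dox-only regions. The strongest shared regions were distal. A region in the CLDN16 intron, chr3:190344874-190346136, had 41 reads (29.4 to 55.6) in Dox and 73 reads (57.2 to 91.8) in No Dox, with folds of 9.49 in Dox and 15.7 in No Dox. These intervals did not overlap as reads, but they did once each was divided by the background of its own list. A region beyond the 3′ end, chr3:190265243-190266668, had a fold of 12.7 in Dox and 14.2 in No Dox. The region in an exon near the 3′ end of CLDN1, chr3:190306362-190306936, stood at percentile 41.2 in Dox and 71.0 in No Dox.

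CLDN3 encodes claudin-3, a barrier-forming claudin of many simple epithelia, from a gene without introns in the annotation (ENSG00000165215.6, chr7:73768997-73770270, minus strand). Its single TSS had a peak in No Dox alone. That peak, chr7:73769522-73769797, lay 473 bases inside the gene, was 276 bases wide and had a fold of 2.54, the lowest value in the No Dox list, at 11 reads (5.49 to 19.7). The Dox list had no peak there, and 0 of the 2001 bases around the TSS lay under a Dox peak, against 276 in No Dox. Taken over all start sites of a gene, CLDN3 was the only member whose promoter state differed. This difference rested on a peak at the calling limit, and it was gone when the No Dox list was restricted to q-values of at most 0.01. Single start sites of OCLN and TJP1 also differed in state, as given below.

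The window of CLDN3 held 2 Dox-only regions, 1 No-Dox-only and 2 shared ones. Its Dox-only region at the promoter of STX1A, a syntaxin gene, chr7:73719321-73719799, had a fold of 5.20, above that of the other Dox-only regions, or 22 reads (13.8 to 33.3). It lay 49198 bases from CLDN3, just inside the 50 kb limit, while a No-Dox-only region of fold 2.97 lay just outside it at 50617 bases. The strongest shared region of the window, chr7:73738224-73739458 at the promoter of ABHD11, had a fold of 7.91 in Dox and 7.20 in No Dox.

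CLDN4 encodes claudin-4, which tightens the paracellular path for sodium, and lies next to CLDN3 (ENSG00000189143.10, chr7:73799542-73832690, plus strand). Both windows share 2 regions, the CLDN3 promoter peak and a Dox-only region of fold 2.94 in a CLDN4 intron. The canonical TSS of CLDN4, at 73830996, was not near a peak in either condition: the nearest Dox peak was 2639 bases away and the nearest No Dox peak 2272. The promoter counted as open through upstream start sites between 73827744 and 73828174. The region there, chr7:73827621-73828724, had a fold of 4.29 in Dox and 6.57 in No Dox, which is percentile 52.7 in Dox and 82.6 in No Dox. The Dox peak was 719 bases wide and the No Dox peak 1104. Of the 40 shared regions this was the one with the largest percentile difference in favour of No Dox, at -29.9 points. The exonic region of CLDN1, chr3:190306362-190306936, was almost level with it at -29.8. As reads it had 18 (10.7 to 28.4) in Dox and 30 (20.2 to 42.8) in No Dox, and these intervals overlapped.

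The 4 other shared regions of the CLDN4 window had the higher fold in Dox. At METTL27, downstream of CLDN4, 1 region had a fold of 5.65 in Dox and 3.81 in No Dox, and the next had 5.65 in Dox and 4.02 in No Dox. A region 20.6 kb downstream with a TEAD site, chr7:73850898-73851917, had a fold of 6.33 in Dox and 5.93 in No Dox. Its percentile was nevertheless the lower one in Dox, 75.7 against 79.3 in No Dox, and the counting intervals of all 4 regions overlapped between the lists.

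**Figure D2:**
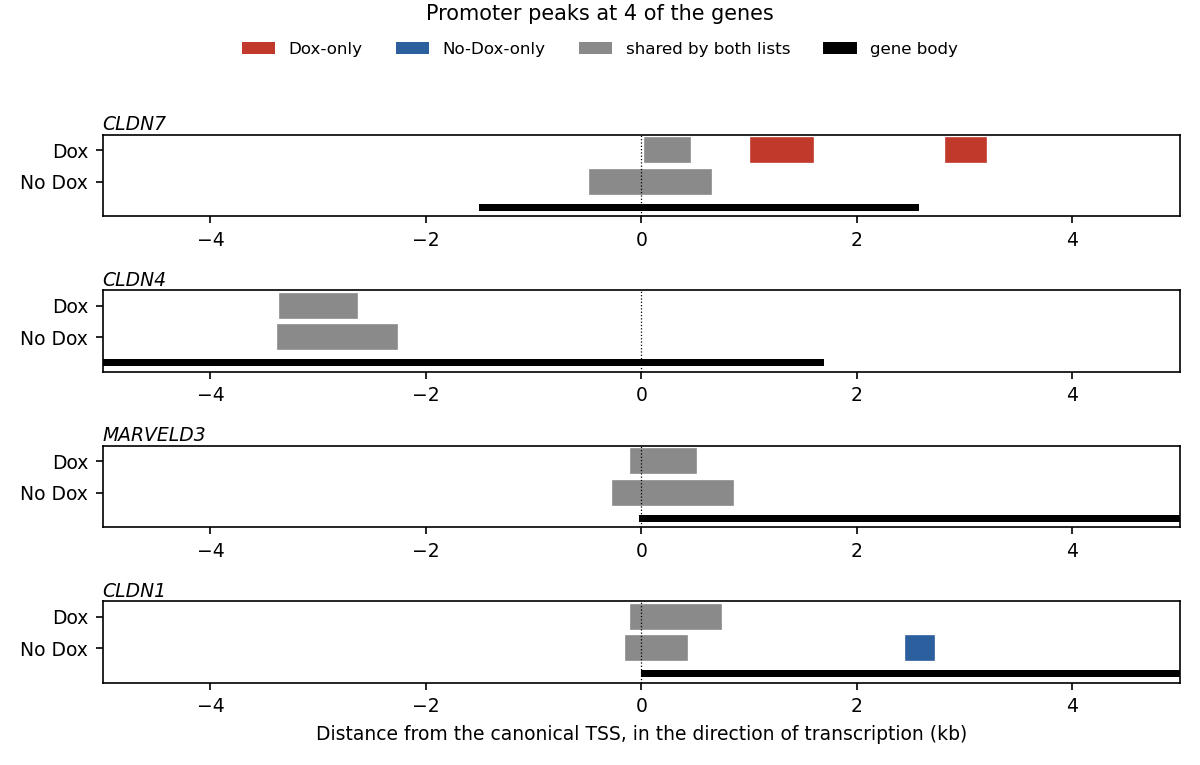
Peaks within 5 kb of the canonical TSS of CLDN7, CLDN4, MARVELD3 and CLDN1, Dox above No Dox. The x axis is the distance from the TSS in kb along the direction of transcription, and colours are as in the map of windows. The Dox peak of CLDN7 stops short of the TSS by 35 bases, while the No Dox peak spans it.

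CLDN7 encodes claudin-7, found at junctions and along the lateral membrane of epithelial cells (ENSG00000181885.18, chr17:7259903-7263983, minus strand). Its promoter had peaks in both conditions, but of different extent. The No Dox peak, 1125 bases wide from 7261833 to 7262957, covered the canonical TSS at 7262478. The Dox peak ran from 7262028 to 7262443, 416 bases, and ended 35 bases short of that TSS, on the side of the gene body. Within 1 kb of the TSS 416 bases lay under a peak in Dox and 1125 in No Dox, a difference of -709 bases. A difference this low or lower occurred at 2.38% of coding genes with a peak there in either list. Peak height did not follow extent: the fold was 3.84 in Dox, 16 reads (9.15 to 26.0), and 2.97 in No Dox, 13 reads (6.92 to 22.2). Both were weak, at percentile 41.2 in Dox and 15.1 in No Dox. The difference in extent rested on this weak No Dox peak: with lists of equal length it was gone, and CLDN7 was open in Dox alone.

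A second Dox peak stood 1.26 kb downstream of the canonical TSS of CLDN7, chr17:7260883-7261461, with a fold of 3.84, within 1 kb of an internal start site, and the No Dox list had none there. The CLDN7 window held 8 Dox-only regions, 1 No-Dox-only and 8 shared ones. As many as 8 Dox-only regions were found around 9.38% of coding genes. The window is crowded, with 14 other coding genes, and 6 of the 8 Dox-only regions lay at the promoters of others: ACADVL, DVL2, PHF23, GABARAP, SLC2A4 and EIF5A. The strongest was at GABARAP, an autophagy gene, with a fold of 4.75 in Dox, or 20 reads (12.2 to 30.9). Among shared regions, the promoter of ACADVL and DLG4 was higher in Dox, with a fold of 9.95 in Dox, or 43 reads (31.1 to 57.9), and 4.45 in No Dox, or 20 reads (12.2 to 30.9). It was the only shared region of the 9 windows whose fold intervals did not overlap, which held for 2.04% of shared regions in coding windows with the higher fold in Dox and 3.6% with the higher fold in No Dox.

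OCLN encodes occludin, a MARVEL domain protein of the strands, and lies downstream of MARVELD2 on chromosome 5 (ENSG00000197822.12, chr5:69492292-69558104, plus strand). Its main promoter was open in both lists at about the same percentile, 82.0 in Dox and 81.6 in No Dox. The fold was 7.46 in Dox, 32 reads (21.9 to 45.2), and 6.35 in No Dox, 29 reads (19.4 to 41.6). The Dox list had 2 separate peaks there, 743 and 420 bases wide, and the No Dox list 1 peak of 1699 bases. Within 1 kb of the canonical TSS 1022 bases lay under a peak in Dox and 1453 in No Dox.

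In the first part of OCLN a further region, chr5:69501652-69503235, was a single Dox peak of 1584 bases and fold 5.43, and in No Dox 2 narrow peaks of 293 and 276 bases with a fold of up to 3.60. Its Dox edge lay 942 bases from an internal start site at 69504177, just inside the promoter limit, whereas the No Dox edge was 1295 bases away. Deeper in the gene a shared intronic region was at percentile 52.7 in Dox and 79.3 in No Dox, and an exonic region, chr5:69520988-69521376, was No-Dox-only with a fold of 3.60. The window had no Dox-only region, and no peak of either list lay in the 86.7 kb that followed. A pseudogene copy, OCLNP1, lies at chr5:71074225-71093193, and CLDN7 has one too, CLDN7P1, at chrX:40760104-40761270. How reads that match both copies were placed is not given in the sources used here.

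MARVELD2 encodes tricellulin, which seals the points where 3 cells meet (ENSG00000152939.17, chr5:69415065-69444330, plus strand). Nothing in its window was found in a single list. The promoter, chr5:69414910-69415939, had a fold of 8.36 in Dox, 36 reads (25.2 to 49.8), and 9.11 in No Dox, 42 reads (30.3 to 56.8). Under peaks near the TSS lay 880 bases in Dox and 1029 in No Dox. The other regions of the window were the promoter of AK6, RAD17 and TAF9, with a fold of 8.36 in Dox and 8.90 in No Dox, and the promoter of OCLN.

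MARVELD3 encodes the third MARVEL protein of the junction (ENSG00000140832.11, chr16:71626161-71642114, plus strand). Its promoter was the single region in a window of 116.0 kb, and 6.85% of coding genes had as few regions. The fold was 4.52 in Dox, 19 reads (11.4 to 29.7), and 5.93 in No Dox, 27 reads (17.8 to 39.3), at percentile 56.9 in Dox and 79.3 in No Dox. The peak was narrower in Dox as well, 599 bases against 1115 in No Dox, and its summit lay 0.407 kb inside the gene in Dox, against 0.046 kb in No Dox. Windows with no condition-only region, as those of MARVELD2 and MARVELD3, made up 12.8% of coding windows.

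**Figure D3:**
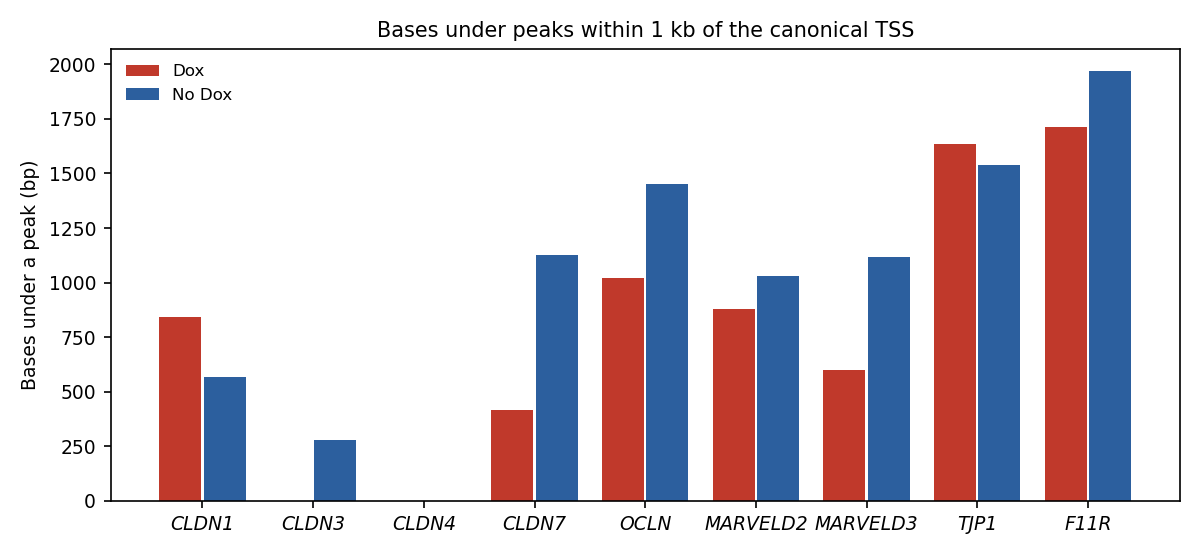
Bases under a peak within 1 kb of the canonical TSS of each gene (y axis, bp, out of 2001), Dox in red and No Dox in blue. CLDN7 shows 416 bases in Dox and 1125 in No Dox, CLDN3 a bar in No Dox alone and CLDN4 none.

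TJP1 encodes ZO-1, the scaffold that links claudins and occludin to actin. It is the longest of the genes, and its window of 369.5 kb holds no other coding gene (ENSG00000104067.17, chr15:29699367-29968915, minus strand). The canonical promoter was strong in both conditions, with a fold of 8.59 in Dox, 37 reads (26.1 to 51.0), and 8.90 in No Dox, 41 reads (29.4 to 55.6). Near the TSS 1634 bases lay under a peak in Dox and 1537 in No Dox. The far upstream start site at 29968915, 146 kb from the canonical TSS, was open in No Dox alone, through a peak of fold 3.81, 17 reads (9.90 to 27.2). The nearest Dox peak was 34414 bases from it.

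The TJP1 window held 4 Dox-only regions, 7 No-Dox-only and 7 shared ones, and as many as 7 No-Dox-only regions were found around 8.57% of coding genes. Of these, 3 of the Dox-only and 6 of the No-Dox-only class lay in the gene body, which is 9 of the 15 condition-only regions inside the bodies of the 9 genes. The Dox-only regions included 3 intronic ones of 19 to 20 reads, among them the one with a TEAD site, chr15:29838369-29838804, of fold 4.52 and 19 reads (11.4 to 29.7). The strongest No-Dox-only regions, also intronic, had folds of 4.66 (chr15:29805150-29805397) and 4.45 (chr15:29936352-29936698), or 21 and 20 reads. Regions of both classes were interspersed up to 29861161, and the 3 most upstream ones were No-Dox-only, as the map of windows shows.

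The shared TEAD regions of TJP1 did not all move the same way. In the intron upstream of the canonical promoter, chr15:29934267-29934628 had a fold of 4.75 in Dox, 20 reads (12.2 to 30.9), and 2.75 in No Dox, 12 reads (6.20 to 21.0). This was the largest percentile difference of the 40 shared regions, 60.5 in Dox and 5.76 in No Dox. Its neighbour chr15:29924758-29926042 had a fold of 8.14 in Dox, 35 reads (24.4 to 48.7), and 5.08 in No Dox, 23 reads (14.6 to 34.5). The region chr15:29920527-29921454, with TEAD and AP-1 sites, had 19 reads in both lists. Downstream of the gene, chr15:29670867-29671544 had a fold of 6.10 in Dox and 7.84 in No Dox. Counting intervals overlapped at each of these 4 regions.

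F11R encodes JAM-A, an adhesion receptor that recruits polarity proteins to young junctions (ENSG00000158769.18, chr1:160995211-161021343, minus strand). Its promoter had the highest fold of the 9, at percentile 99.1 in Dox and 99.4 in No Dox. The gene lies in a stretch dense in regions, given below. The fold was 23.3 in Dox, 102 reads (83.2 to 124), and 28.0 in No Dox, 131 reads (109.5 to 155). The peak was 1711 bases wide in Dox and 2561 in No Dox. An intronic region 7.2 kb inside the gene, chr1:161013492-161014710, had a fold of 4.97 in Dox, 21 reads (13.0 to 32.1), and 8.05 in No Dox, 37 reads (26.1 to 51.0), with intervals that overlapped.

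The F11R window held 10 Dox-only regions, 4 No-Dox-only and 6 shared ones, and as many as 10 Dox-only regions were found around 6.40% of coding genes. All 10 were weak, with folds of 2.94 to 3.84, below the median of the Dox list, or 12 to 16 reads. In position, 1 lay in an intron of F11R, 1 upstream of it, 4 in the intergenic stretch beyond its 3′ end, 1 in ITLN2 and 3 in ARHGAP30. Among No-Dox-only regions the strongest was at the promoter of USF1, with a fold of 4.24, or 19 reads (11.4 to 29.7). The 5 Mb on either side of F11R held 17.5 regions per 100 kb, against 1.31 to 4.24 around the other members. Of the condition-only regions there 30.3% were Dox-only, against 71.4% (95% exact binomial interval 41.9 to 91.6) in the window itself. Around the other members this neighbourhood share ran from 36.3% (CLDN1) to 59.4% (MARVELD3). Around CLDN7 it was 52.3%, against 88.9% (51.8 to 99.7) in the CLDN7 window. What the density and these shares mean for the F11R and CLDN7 counts was not tested.

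**Figure D4:**
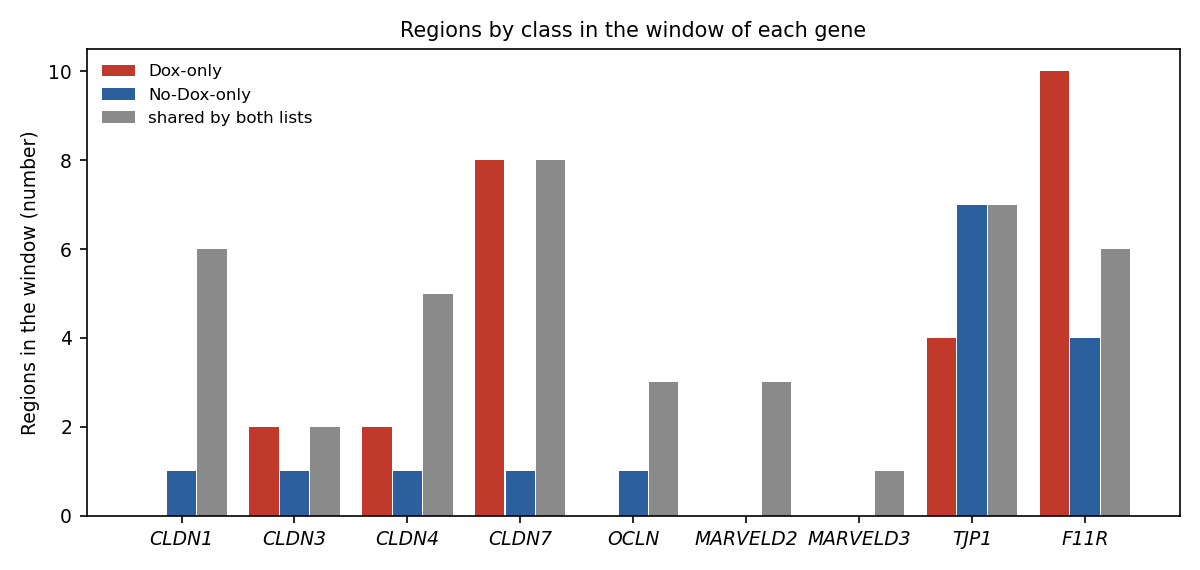
Regions in the window of each gene (y axis, number of regions), with Dox-only in red, No-Dox-only in blue and shared in grey. F11R has 10 and CLDN7 has 8 Dox-only regions, TJP1 has 7 No-Dox-only regions, and MARVELD2 and MARVELD3 have shared regions alone. CLDN3 and CLDN4 share 2 regions, and OCLN and MARVELD2 share 1.

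Over the 9 windows, 25 of the 40 condition-only regions were Dox-only, 62.5% (95% exact binomial interval 45.8 to 77.3), beside 39.7% in all coding windows. Regions in 1 window are neighbours and not independent, so the interval is a description. F11R and CLDN7 supplied 18 of the 25. The share was 57.7% without the F11R window, 54.8% without the CLDN7 window and 72.4% without the TJP1 window. Inside the gene bodies alone 6 regions were found in Dox only and 9 in No Dox only, which makes a Dox share of 40.0%. TJP1 held 3 of these 6 and 6 of these 9. No share inside the bodies of all coding genes was computed. More Dox-only than No-Dox-only regions were found around 4 genes (CLDN3, CLDN4, CLDN7 and F11R), and more No-Dox-only around 3 (CLDN1, OCLN and TJP1). Among all coding genes these shares were 44.7% and 33.5%.

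Condition-only regions of these genes were narrow and low. Dox-only regions had a median fold of 3.62 (2.71 to 5.20), and 20 of 25 were under a fold of 4. No-Dox-only regions had a median fold of 3.60 (2.54 to 5.30), and 10 of 15 were under 4. The median width was 324 bases in the Dox-only class, 298 in the No-Dox-only class and 935.5 where both lists had a peak. A counting interval wholly above 11 reads, the weakest peak of the other list, was seen in 5 of 25 Dox-only regions, beside 18.4% of Dox-only regions in coding windows. The same was seen in 4 of 15 No-Dox-only regions, beside 19.6%. Those were the Dox-only regions at STX1A and GABARAP and 3 in TJP1 introns, and the No-Dox-only regions in the CLDN1 intron, at USF1 and 2 in TJP1 introns. The reads were not divided here by the background of their own list. The lower end was close to the limit, at 11.4 reads, for the USF1 region and for chr15:29788549-29789208 and chr15:29838369-29838804 in TJP1. Counted as strong where a peak reached the median fold of its list were 5 of the Dox-only class (29% in coding windows), 6 of the No-Dox-only class (31.6%) and 39 of the 40 shared ones (90.2%). Dox-only regions were thus 5 of the 11 strong condition-only regions, beside 37.7%. All 10 regions with a fold of at least 8 in a list were shared.

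Within 1 kb of any coding TSS lay 8 regions of the Dox-only class (32.0%), 5 of the No-Dox-only class (33.3%) and 22 shared ones (55.0%). In all coding windows these shares were 16%, 7.25% and 37.6%. The Dox-only share rested on the CLDN7 window, which held 7 of the 8, and without it 1 of 17 (5.88%) lay near a start site, below the share in coding windows. Only 3 condition-only regions were at a promoter of a member: 1 Dox-only region in CLDN7, and 2 No-Dox-only regions, in CLDN3 and at the upstream start of TJP1. An E-box was found in 10 of the 25 regions of the Dox-only class, 4 of 15 of the No-Dox-only class and 10 of 40 shared ones, beside 24.3%, 19.5% and 19.4% in coding windows. Of the 10 in the Dox-only class 6 lay in the CLDN7 window, and without it the count was 4 of 17 (23.5%). Without the TJP1 window the No-Dox-only count was 1 of 8 (12.5%). An AP-1 site was found in 3, 2 and 6 regions of these classes, beside 7.77%, 12.4% and 16.9%, with 1 of 15 Dox-only regions (6.67%) left without the F11R window. For TEAD the counts were 1, 0 and 6, beside 12.6%, 5.52% and 9.04%, and without the TJP1 window 2 of 33 shared regions (6.06%) held a TEAD site. The GRHL site, AACCNGTT, bound by grainyhead-like factors of epithelia, was found in 1 Dox-only region, 1 No-Dox-only region and no shared one. In coding windows these shares were 0.967%, 1.35% and 1.15%. It was in 2 of all 80 regions, beside 1.18% of all regions in coding windows. The reversed TEAD control was in 1 Dox-only region, no No-Dox-only region and 2 shared ones. In coding windows these shares were 2.03%, 2.26% and 1.97%. It was in 3 of all 80 regions, beside 2.1% of all regions in coding windows. A match says that the letters are present, not that a factor was bound.

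For the 40 shared regions the direction depended on the scale. By percentile, 17 stood higher in Dox and 23 in No Dox, beside 30.2% higher in Dox among shared regions of coding windows. By the deposited fold, 23 were higher in Dox and 17 in No Dox, beside 43.8% higher in Dox. The lists differ in length, which bears on percentiles, and in background, which bears on folds, so neither count was read as a shift of these regions. The median percentile difference, Dox minus No Dox, was -1.90 points (-29.9 to 54.7), beside -4.56 in coding windows. Among the 8 promoters open in both lists, Dox had the higher percentile at 2, OCLN and CLDN7, beside 27.8% of coding genes, and by fold CLDN1 was higher in Dox as well. Fewer bases near the canonical TSS lay under a peak in Dox at 6 of the 8 members with a peak there (CLDN3, CLDN7, OCLN, MARVELD2, MARVELD3 and F11R), beside 52.8% of coding genes. More lay under a peak in Dox at CLDN1 and TJP1, beside 45.2%.

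**Figure D5:**
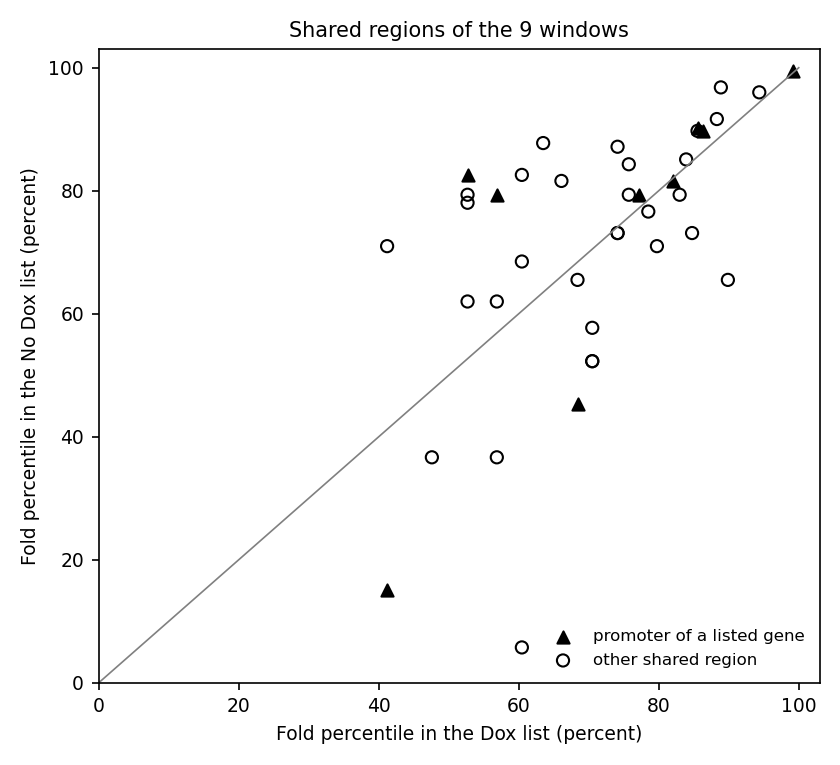
Fold percentile of each of the 40 shared regions in the Dox list (x axis, percent) and in the No Dox list (y axis, percent). Triangles are promoters of the 9 genes, circles other regions, and the line marks equal percentiles. The circle at 60.5 in Dox and 5.76 in No Dox is the TJP1 intronic region with a TEAD site, and the triangle at 41.2 and 15.1 is CLDN7.

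Of 44 other tight junction genes, all found in the annotation, 31 had an open promoter in both lists, 2 in Dox alone, 2 in No Dox alone and 9 in neither. Among all coding genes these shares were 65.3%, 5.85%, 3.92% and 24.9%. Open in Dox alone were CLDN9 and TJP3, the gene of ZO-3, both at percentile 5.54. Open in No Dox alone were CGNL1, which encodes the scaffold paracingulin, at percentile 68.5, and CLDN18 at 36.7. The windows of the 44 genes held 125 Dox-only regions (28.9%), 126 No-Dox-only (29.2%) and 181 shared ones (41.9%). In all coding windows these shares were 25.2%, 38.2% and 36.6%. CLDN16 is among the 44, and its window shares regions with that of CLDN1. The Dox-only share of condition-only regions was 49.8% (95% exact binomial interval 43.5 to 56.2), and it was 62.5% around the 9 members, with intervals that overlapped. MAGI2, a long scaffold gene, alone had 15 of the Dox-only and 50 of the No-Dox-only regions, and without it the share was 59.1% (51.7 to 66.3). The share in all coding windows, 39.7%, kept all long genes. After MAGI2, the most condition-only regions lay around ILDR2 on chromosome 1, with 8 in Dox only and 10 in No Dox only. CGN, the gene of cingulin on the same chromosome, had 11 regions in Dox only and 0 in No Dox only. More Dox-only than No-Dox-only regions were found around 44.7% of all coding genes.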

How the data were processed

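ATAC-seq of MCF10A cells with inducible TAZ-4SA was taken from 1 peak list per condition, Dox and No Dox, each pooled by the authors from 2 replicates. Per the submitters' notes and methods, reads were aligned to hg38 with BWA and peaks called with MACS2 at an FDR of 0.05. The methods give an average number of reads generated, but depth per sample is not given in the sources used here. The deposited fold, a ratio of signal to background at the summit, and the deposited −log10 of the q-value were used as given. The authors' read counts and differential regions were not used here.

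Overlapping or adjoining peaks (chromosomes 1 to 22 and X) were joined into union regions, which were set against GENCODE release 44 (Python 3.11.15, pandas 2.3.3, pysam 0.24.0). Strong regions had a fold at or above the median of their list. Shares carry Clopper-Pearson intervals. Summit reads, the fold divided by its step less 1, were computed after seeing the data and were used for description. Motifs were sought within 100 bases of the summit of the strongest peak, and promoter sequences came from RefSeq on GRCh38.p14. MARVELD3 and F11R had no entry there. On simulated lists 100% of 3000 regions were given the right class. Alternatives varied the q-value, list length, overlap, window, promoter distance and motif window. All 9 genes were named, each with its promoter peaks, its strongest condition-only regions and its strongest shared region outside promoters, and of the other tight junction genes those whose state differed or that stood out. Members and lists were chosen with earlier results of these data known.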

Additional observations from a re-analysis of the deposited data

How the results depend on the processing

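The count of 25 Dox-only regions was 11 at a q-value of at most 1e-05, 9 with strong peaks only, 6 with the gene body alone, 15 with 20 kb each side, 13 by nearest coding TSS, 15 without the F11R window and 0 at a fold of at least 8. The count of 15 No-Dox-only regions was 6 at a q-value of at most 1e-05, 9 with lists of equal length, 7 with strong peaks only, 9 with the gene body alone, 26 with 100 kb each side, 8 without the TJP1 window and 0 at a fold of at least 8. The 40 shared regions became 18 with the gene body alone, 26 with 20 kb each side, 22 by nearest coding TSS and 10 at a fold of at least 8. The Dox-only share of 62.5% was 40.0% with the gene body alone and 54.2% to 75.0% under the other settings. The share over all coding genes was not recomputed under these settings. TEAD sites, in 7 regions, were in 4 with 50 bp each side of the summit and 13 with the whole peak. Of the 40 shared regions, 17 were higher in Dox by percentile and 23 by the deposited fold, which turned the majority. Promoters open in both lists numbered 7 or 8 under every setting. CLDN3 was closed in both lists at q-values of at most 0.01 and 1e-05, with lists of equal length, with strong peaks only and where the TSS had to lie under the peak. CLDN7 was open in Dox alone with lists of equal length and closed at a q-value of at most 1e-05 and with strong peaks only. The settings without a window, the deposited fold and the fold minimum of 8 were chosen after seeing the data, and at that minimum no condition-only region was left, so no share. Peaks were filtered before they were joined, so a shared region that lost its peak in 1 list then counted as condition-only. OCLN thus had 1 Dox-only region with strong peaks only, against 0 in the main count. The 9 Dox-only regions with strong peaks only are therefore not a part of the 25, of which 5 were strong. Fewer or smaller regions in total under the stricter settings follow from their construction, and other causes were not tested. No paired analysis was possible because the authors pooled the replicates of each condition into 1 list. With about 17 reads at a median summit, a difference of a few reads was not detectable at this depth, and a region absent from a list may still be open there below the 11 reads of its weakest peak.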

Other observations

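The split of condition-only regions is given here for several other junction genes. In all coding windows 39.7% of condition-only regions were Dox-only. CLDN6 and CLDN9, neighbouring claudin genes on chromosome 16 whose windows overlap, had 15 and 16 Dox-only regions and 0 of the opposite class. The promoter of CLDN6 was open in both lists, at percentile 82.0 in Dox and 71.0 in No Dox. MAGI1, a scaffold gene on chromosome 3, had 4 regions in Dox only and 10 in No Dox only. The No-Dox-only class was also the larger one in coding windows. CXADR, which encodes a junctional virus receptor, had 0 regions in Dox only and 4 in No Dox only. As many as 4 No-Dox-only regions were found around 18.3% of coding genes. Its promoter was strong, at percentile 98.7 in Dox and 99.2 in No Dox. These genes were picked from the list of 44 after their values were seen, and no difference was tested.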
